A study of Rattus norvegicus with 12 samples.

Results

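The Hox genes of the rat were followed here across 4 states of PAC1 cells, a line of rat pulmonary artery smooth muscle cells. They were taken from the count table by name: every symbol made of Hoxa, Hoxb, Hoxc or Hoxd and a number, and nothing more, was a member. That gave 38 genes of the 33294 in the table, with 10 in the HoxA cluster, 10 in HoxB, 9 in HoxC and 9 in HoxD. Hoxa10 was not among them because the table lists it by its gene number, as LOC100911668, and its values are given beside the cluster. Poly(A) RNA-seq libraries of 4 groups were compared, with 3 libraries in each. D1 is PAC1-D, the more differentiated culture, split once a week at a dilution of 1 in 10, with control siRNA. P is PAC1-P, the more proliferative culture, split 2 times a week at 1 in 20, also with control siRNA, so that phenotype and passage schedule cannot be told apart in this contrast. RBPMS KD1 is PAC1-D with siRNA against Rbpms, and MBNL KD is PAC1-D with siRNAs against both Mbnl1 and Mbnl2. Per the labels, 200000 cells per well received 90 pmol of siRNA, the transfection was repeated after 24 h, and cells were taken 48 h after that. The study's methods give higher seeding densities, with more PAC1-D than PAC1-P cells per well. They also give longer intervals up to the second transfection and up to harvest, so that these settings are open. By those methods, seeding density could not be told apart from phenotype in P against D1 either. All 4 groups are the same established line and all received siRNA, so that no group is an untransfected culture. The study's methods describe all experiments as made with independent biological replicates, whereas the labels do not tie the 3 libraries of a group to separate cultures, and p-values below measure the spread between these libraries.

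Hox genes encode transcription factors that bind DNA through a homeodomain and give cells along the body axis their regional identity. They lie in clusters, and the order of the genes along a cluster follows the order in which they are expressed from the anterior to the posterior of the embryo. The number in a name is the paralogue group, so that genes with the same number in different clusters descend from 1 ancestral gene. Low numbers are anterior and high numbers posterior, and genes are described below as anterior (groups 1 to 4), central (5 to 8) or posterior (9 to 13). Hox proteins bind DNA together with the Pbx, Meis and Pknox proteins of the TALE class. Retinoic acid and the Polycomb and Trithorax complexes set which part of each cluster is open, and smooth muscle cells of adult vessels keep a Hox pattern that reflects the region they came from.

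Values are read counts scaled by edgeR's TMM factors to a common library size, called scaled counts, and SDs are over the 3 libraries of a group. For every comparison edgeR's quasi-likelihood model was run on the 6 libraries concerned, over all genes that passed its filter on low counts. A gene was called higher or lower where the p adjusted by Benjamini and Hochberg's method was under 0.05 and the log2 fold change was over 1 in size. Log2 fold changes are given with their standard errors. Total counts lay between 80842635 and 90771289 per library, the lowest in MBNL KD replicate 3. A gene with at most 3 counts in every library is treated as not detected, which is a limit for counting error only. Rbpms in RBPMS KD1 was at 25.01% of the D1 mean, and Mbnl1 and Mbnl2 in MBNL KD were at 23.8% and 29.6%. The libraries of P stood apart from the other 9 in more than Hox genes. The summed scaled counts of 5 smooth muscle markers were 748371 to 786875 in D1 and 10307 to 11029 in P, and those of 5 germ cell markers were 15.5 to 33.6 in D1 and 23966 to 24840 in P. Of these 5, 4 were over 100 scaled counts in P, while 4 were at or under 3 in D1, with Rbm46 and Adad2 at 0. In RBPMS KD1 and MBNL KD the germ cell sum was 9.85 to 27.05. The 6 endothelial markers summed to 66.996 to 72.4 in D1, with Cdh5 and Kdr at 0, and to 488 to 606 in P, with 3 of 6 over 100. The 5 epithelial markers summed to 3154 to 3309 in D1, with Epcam, Cdh1 and Cldn4 at 0, and to 7128 to 7397 in P, with none at 0. The knockdowns moved in some of these lists as well. The smooth muscle sum was 370764 to 385031 in RBPMS KD1 and 608325 to 617231 in MBNL KD. The sum of 6 striated muscle markers was 469 to 496 in D1, with Myod1 and Myh6 at 0, 388 to 465 in RBPMS KD1, 1361 to 1501 in MBNL KD, with none at 0, and 1272 to 1368 in P, with Actc1 at 0. The epithelial sum was 3448 to 3677 in RBPMS KD1 and 4763 to 4848 in MBNL KD, and the endothelial sum 162 to 165 and 83.2 to 128. The sum of 5 fibroblast markers was 1277382 to 1340912 in D1, 1591797 to 1774346 in P, 1778023 to 1891492 in RBPMS KD1 and 1155843 to 1188955 in MBNL KD. The part of these differences in the Hox results of P and of the knockdowns was not tested. In bulk RNA, a smaller share of cells with a transcript and less of it per cell cannot be told apart.

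The 250 bases before the annotated start of 4 genes are shown because these genes mark the limits of the Hox pattern described below. Hoxd8 and Hoxd4 carried nearly all HoxD counts in D1 and nearly none in P, Hoxd9, the next gene to Hoxd8, had no count in any library, and Hoxa11 was the Hox gene with the largest fitted rise in P. The sequences are RefSeq's for GRCr8, a later assembly than the mRatBN7.2 used for the counts, and run 5′ to 3′ on the gene's own strand with each CG dinucleotide in capitals.
Hoxd8 (chr3:80014973-80015222, plus strand): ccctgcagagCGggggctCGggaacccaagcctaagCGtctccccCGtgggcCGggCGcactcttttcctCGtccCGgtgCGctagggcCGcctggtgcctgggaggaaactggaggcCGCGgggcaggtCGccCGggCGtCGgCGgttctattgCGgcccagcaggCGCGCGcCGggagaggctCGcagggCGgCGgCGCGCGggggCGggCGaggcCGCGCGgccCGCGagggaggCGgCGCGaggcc
Hoxd9 (chr3:80007756-80008005, plus strand): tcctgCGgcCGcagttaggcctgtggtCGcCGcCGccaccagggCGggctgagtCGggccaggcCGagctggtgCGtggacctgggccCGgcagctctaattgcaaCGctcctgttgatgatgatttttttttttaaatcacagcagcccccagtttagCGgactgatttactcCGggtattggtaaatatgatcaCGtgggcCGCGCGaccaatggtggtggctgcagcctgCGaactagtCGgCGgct
Hoxd4 (chr3:80021636-80021885, plus strand): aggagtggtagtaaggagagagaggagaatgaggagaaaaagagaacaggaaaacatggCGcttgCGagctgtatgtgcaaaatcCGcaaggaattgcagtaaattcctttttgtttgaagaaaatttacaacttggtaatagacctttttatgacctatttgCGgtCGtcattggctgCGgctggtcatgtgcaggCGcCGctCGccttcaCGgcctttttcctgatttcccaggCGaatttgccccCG
Hoxa11 (chr4:82676802-82677051, minus strand): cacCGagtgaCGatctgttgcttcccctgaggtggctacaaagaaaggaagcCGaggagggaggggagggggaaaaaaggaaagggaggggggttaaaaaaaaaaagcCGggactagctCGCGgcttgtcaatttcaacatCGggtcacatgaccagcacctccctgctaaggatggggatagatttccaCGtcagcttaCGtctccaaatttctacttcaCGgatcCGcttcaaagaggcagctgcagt

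The windows held 38 CG dinucleotides for Hoxd8, 20 for Hoxd9, 12 for Hoxd4 and 11 for Hoxa11. The 19 members that had a promoter entry held between 3 (Hoxc4) and 39 (Hoxa13), with a median of 20, and the median over all 27457 promoters of the table was 6. Hoxd9, which had no count, and Hoxa11, which was detected, both had more than that median. TATAAA on the gene's strand was found in 2 of the 19 windows (Hoxa9 and Hoxd13) and in 8.38% of all promoters. TGATNNAT on either strand, the sequence bound by Pbx with Hox proteins, was found in 3 of the 19 (Hoxa2, Hoxb1 and Hoxd11) and in 7.75% of all promoters. The other 19 members, among them Hoxb2 to Hoxb9 and Hoxc6, had no entry.

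Detection followed the clusters. Of the 38 genes, 24 had more than 3 counts in at least 1 library: 10 of 10 in HoxA, 8 of 10 in HoxB, 3 of 9 in HoxC and 3 of 9 in HoxD. A further 11 had no count in any of the 12 libraries. These were Hoxb1 and Hoxb13 at the ends of HoxB, Hoxc8, Hoxc10, Hoxc11 and Hoxc12, and Hoxd1, Hoxd9, Hoxd10, Hoxd11 and Hoxd12. Hoxc9, Hoxc13 and Hoxd3 had at most 3 counts. HoxC was thus read from Hoxc4, Hoxc6 and at most 4 counts of Hoxc5, and HoxD from Hoxd4, Hoxd8 and at most 10 counts of Hoxd13. Of the members, 22 are listed in the authors' normalised table and 16 are not.

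**Figure D1:**
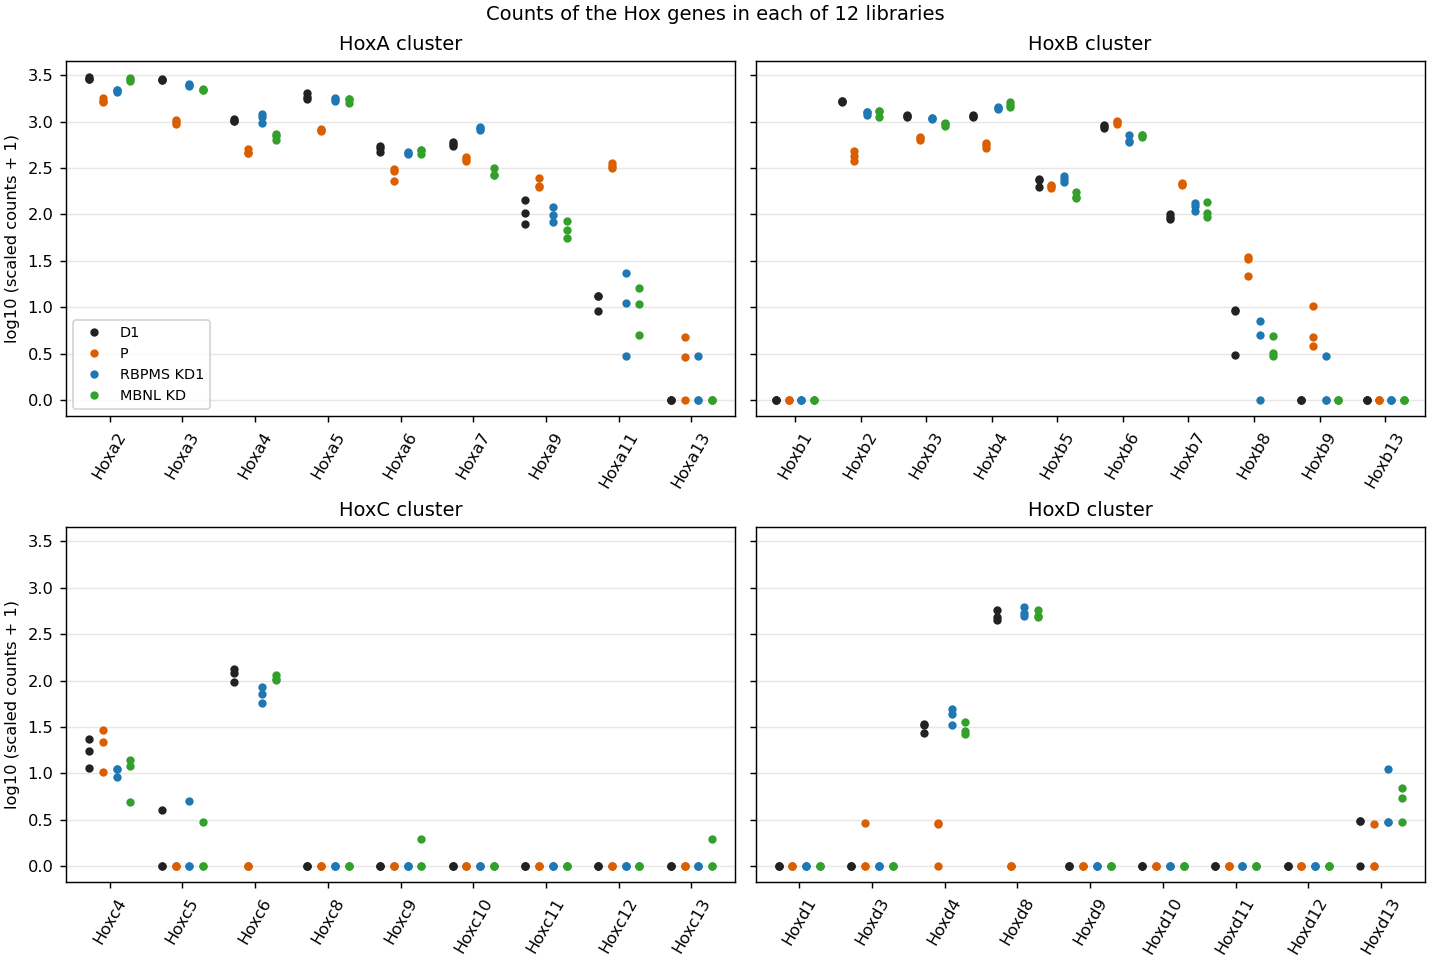
Scaled counts of Hox genes in each of the 12 libraries, as log10 of the value plus 1 (vertical axis), by cluster and in order of group number (horizontal axis), with 1 point per library and colours for the 4 groups. HoxA and HoxB were detected along most of their length, whereas HoxC and HoxD were read from few genes, and the points of Hoxc6 and Hoxd8 lie at 0 in all 3 libraries of P.

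In D1, the counts of all 38 genes together made up 171 to 176 CPM (counts scaled to the library total). HoxA held 63.5% of them, HoxB 32.4%, HoxD 3.34% and HoxC 0.832%. The sum was 103 to 108 CPM in P, 156 to 165 in RBPMS KD1 and 155 to 159 in MBNL KD. In scaled counts, P stood at 54.9% of the D1 mean, RBPMS KD1 at 90.9% and MBNL KD at 87.8%. The shares of HoxA and HoxB stayed near those of D1 in P, at 64.8% and 34.98%, while HoxD stood at 0.0287% and HoxC at 0.223%. The HoxD sum was 534 ± 67.1 scaled counts in D1 and 2.52 ± 2.18 in P (SD, n = 3), and the HoxC sum was 133 ± 16.6 and 19.5 ± 9.48.

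The comparison of P with D1 asks how the Hox pattern differs between the proliferative and the differentiated culture. Of the 38 genes, 20 passed the filter on low counts, 8 were lower in P, 3 were higher and 9 were not called. Among all 16814 genes tested, 11.2% were lower and 16.4% higher, so that the 3 of 20 that were higher lay near the share of all genes and the 8 of 20 that were lower above it. Hoxc6, Hoxd4 and Hoxd8 passed the filter through D1, and Hoxa11 and Hoxb8 through P, which fixed the direction of these genes in advance. With at least 10 counts in every library none of them was tested, and 5 Hox genes were lower. These shares describe the genes tested and were not tested themselves. On adjusted p alone, 12 were lower and 6 higher, against 37.6% and 40.4% of all genes. The median log2 fold change of the 20 was -0.80, also with absent genes set to their bound, and that of all genes was 0.02. The genes called lower were Hoxa3, Hoxa4, Hoxa5, Hoxb2, Hoxb4, Hoxc6, Hoxd4 and Hoxd8, of which 5 are anterior and 3 central. Those called higher were Hoxb7 and Hoxb8, which are central, and Hoxa11, which is posterior. Quantile normalization moved the split of all genes to 2256 higher and 2672 lower, from 2758 and 1883, and gave 2 Hox genes higher and 9 lower, Hoxb7 leaving the first count and Hoxa6, at -1.19, joining the second.

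The largest falls were in HoxD and HoxC. Hoxd8, a central gene that is used along the trunk of the embryo, had 476, 578 and 452 scaled counts in the 3 D1 libraries and no count in any of the 3 P libraries. The groups were far apart, and against a limit of 3 counts per library Hoxd8 was at least 176-fold lower in P (edgeR, adjusted p = 2.87e-23). Hoxc6, a gene of the brachial and thoracic region, had 132, 119.6 and 95.8 in D1 and again no count in P, at least 40.6-fold lower (adjusted p = 4.98e-15). Hoxd4, which patterns the hindbrain and neck, was at 30.7 ± 3.63 in D1 and 1.26 ± 1.09 in P, with 2, 2 and 0 reads counted in P. The ratio of its summed counts was 24.3 (95% interval 9.18 to 91.2, counting error only), and the gene was called lower (adjusted p = 3.72e-08). Most low counts in the table were even, and where the 2 mates of a fragment were counted singly that interval is too narrow and the limit of 3 counts stands for fewer fragments. In limma on the authors' normalised values, of which the smallest is 35, its log2 fold change was -0.97, under the call threshold. Hoxc4, at the anterior end of HoxC, was at 16.3 ± 6.05 in D1 and 19.5 ± 9.48 in P, and these groups overlapped (adjusted p = 0.599). Hoxc5 and Hoxd13 were below the filter and were not tested.

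In HoxA, 6 anterior and central genes, Hoxa2 to Hoxa7, were lower in P on adjusted p, 3 of them past the fold as well. Hoxa3, needed for the thymus and parathyroid, had 2767, 2859 and 2774 in D1 and 1028, 938 and 998 in P, without overlap, a log2 fold change of -1.51 ± 0.048 (adjusted p = 2.78e-24). Hoxa5, needed for lung and trachea, had 1760.5, 1852 and 2051 in D1 and 826, 798 and 806 in P, a log2 fold change of -1.23 ± 0.058 (adjusted p = 2.73e-19). Hoxa4 had 1022, 1072 and 1006 in D1 and 463, 500.4 and 460.1 in P, a log2 fold change of -1.13 ± 0.069 (adjusted p = 2.94e-16). Each of the 3 was lower in all P libraries than in any D1 library. Hoxa2, a gene of the hindbrain and branchial arches with the highest mean count of the cluster in D1, had 2864, 2998 and 2902 in D1 and 1776, 1649 and 1632 in P, and Hoxa7 had 576, 598 and 549 and 395, 377 and 413. Both were apart between the groups but under the fold used for a call, with log2 fold changes of -0.80 ± 0.044 and -0.55 ± 0.081. Hoxa6 was under it as well, at 509 ± 41.99 in D1 and 278 ± 41.96 in P and a log2 fold change of -0.88 ± 0.10.

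Of the posterior HoxA genes, Hoxa9 and Hoxa11 had higher counts in P. Hoxa11, which acts in the forearm, kidney and uterus, had 12.2, 12.4 and 8.15 in D1 and 319, 329 and 353 in P. It was close to the detection limit in D1 and stood 30.1-fold higher in P, a log2 fold change of 4.91 ± 0.20 (edgeR, adjusted p = 7.07e-21). In limma on the authors' normalised values the log2 fold change was 2.74, still called. Hoxa9, a regulator of blood progenitors, was at 108 ± 32.6 in D1 and 215 ± 28.9 in P, and its log2 fold change of 0.99 ± 0.17 lay just under the call threshold (adjusted p = 3.89e-06). Without D1 replicate 2, P replicate 2 or P replicate 3 it was 1.24, 1.04 and 1.06, and Hoxa9 was called. Without D1 replicate 3 it was 0.80, and in limma on the authors' normalised values it was 0.46 and did not pass the test (adjusted p = 0.0657). Hoxa13, the last gene of the cluster, had 2 reads or none in all but 1 library and 4 reads in that one, and was not tested. Hoxa10, listed as LOC100911668 and lying between Hoxa9 and Hoxa11, did not follow its neighbours. It had 809, 797 and 788 in D1 and 572, 522 and 468 in P, a log2 fold change of -0.62 ± 0.075 (adjusted p = 5.52e-09).

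In HoxB the log2 fold changes went from negative at the anterior end to positive among the last central genes. Hoxb2, a hindbrain gene with the highest mean count of the cluster in D1, had 1679, 1676 and 1616 in D1 and 423, 378 and 479 in P, a log2 fold change of -1.96 ± 0.068 (edgeR, adjusted p = 4.55e-23). Hoxb4, known for the expansion of blood stem cells, had 1180.1, 1116 and 1148 in D1 and 585, 519 and 557 in P, a log2 fold change of -1.06 ± 0.065 (adjusted p = 4.56e-16). Both genes were lower in every P library. Hoxb3, between them, was at 1151 ± 35.1 in D1 and 660.3 ± 22.04 in P, under the fold at -0.81 ± 0.062. Hoxb5 was at 223 ± 25.2 in D1 and 201 ± 6.73 in P and the groups overlapped, while Hoxb6 was at 890.5 ± 33.4 and 982 ± 37.2, a log2 fold change of 0.14 ± 0.061 (adjusted p = 0.0429). Hoxb7 had 101, 92.8 and 88.6 in D1 and 211, 217 and 205 in P, higher in every P library, a log2 fold change of 1.16 ± 0.15 (adjusted p = 2.53e-08). Its call rested on the scaling, since the log2 fold change was 0.70 after quantile normalization and 0.56 in limma on the authors' normalised values. Hoxb8, a gene of the trunk and spinal cord, was at 6.15 ± 3.56 in D1 and 29.04 ± 7.25 in P, a log2 fold change of 2.21 ± 0.46 (adjusted p = 6.7e-05) that was 0.50 in limma on the authors' normalised values. Hoxb9 had no count in D1 and 10, 3 and 4 reads in P, which is under the filter, at least 1.73-fold higher against the limit of 3 counts per library. Across the 7 tested HoxB genes the rank correlation of group number with log2 fold change was 0.96, and across the 9 tested HoxA genes it was 0.47, or 0.48 with Hoxa10. Against D1 in RBPMS KD1, it was 0.37 across 6 HoxB genes and 0.72 across 9 HoxA genes, or 0.52 with Hoxa10. In MBNL KD the values were 0.20 across 6 HoxB genes and -0.60 across 9 HoxA genes, or -0.32 with Hoxa10. These correlations describe genes measured in the same 6 libraries of a comparison, not replicates.

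**Figure D2:**
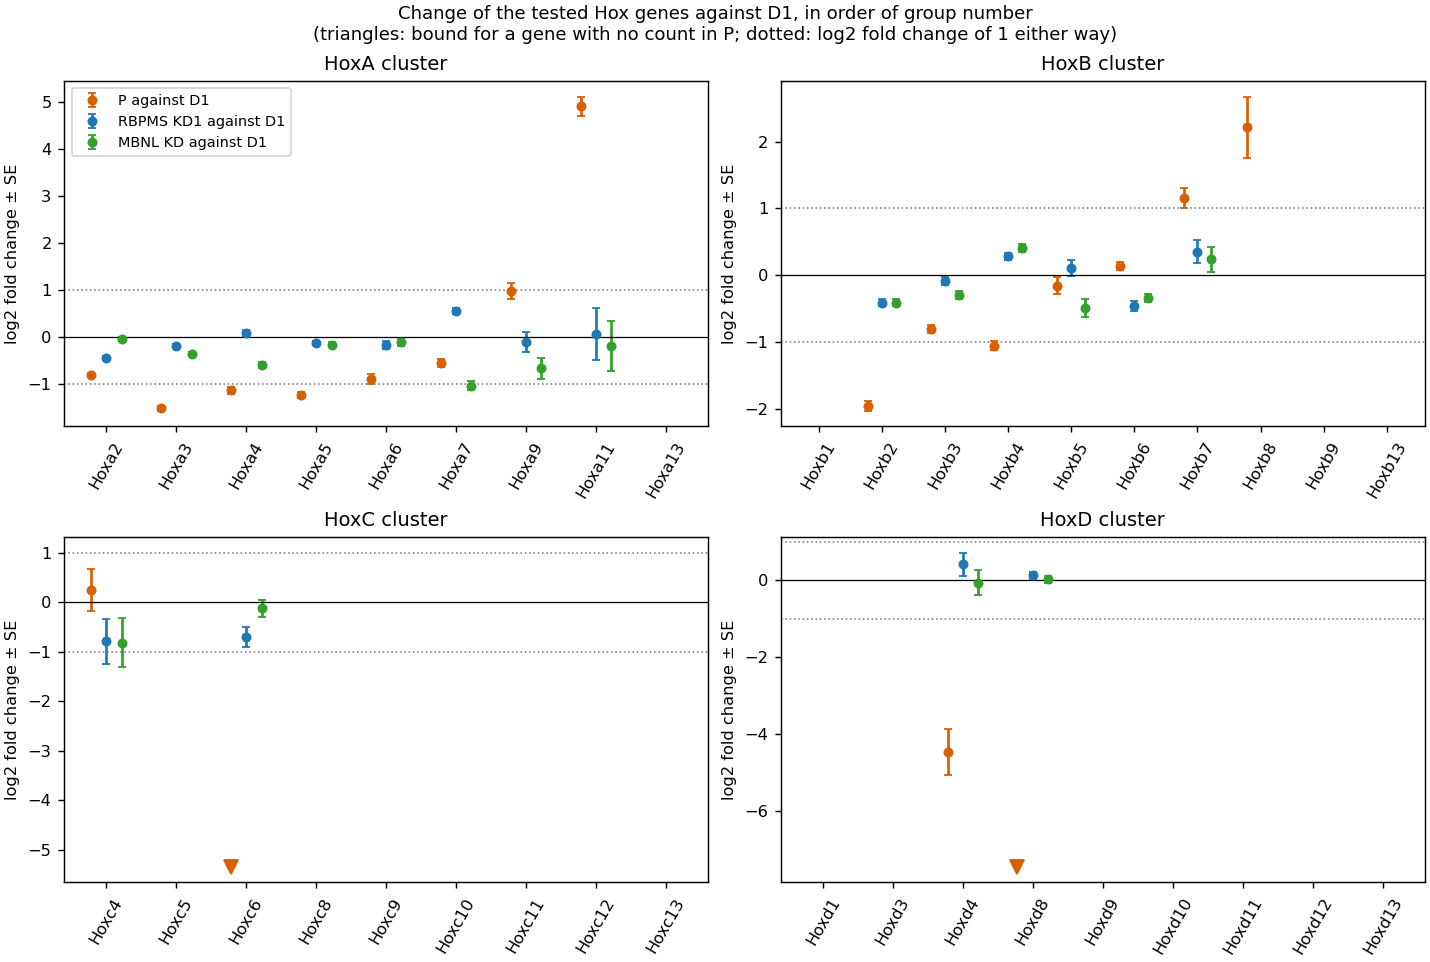
Log2 fold change with its standard error (vertical axis) of tested Hox genes against D1, in order of group number along each cluster (horizontal axis), for P, RBPMS KD1 and MBNL KD. Triangles mark the bound for Hoxc6 and Hoxd8, which had no count in P, and the dotted lines are at a log2 fold change of 1 either way. In HoxB the points of P run from -1.96 at Hoxb2 to 2.21 at Hoxb8, whereas in all 4 clusters those of both knockdowns stay between the dotted lines except Hoxa7 in MBNL KD, at -1.02.

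Summed by position, the anterior genes of HoxB took 76.5% ± 0.0358 of the cluster's counts in D1 and 53.4% ± 1.90 in P (SD, n = 3), and the central genes 23.5% and 46.4%. The sum of the anterior HoxB genes in P was 41.5% of that in D1, while the sum of the central ones was 117%. In HoxA the posterior members, which do not include Hoxa10, took 1.17% ± 0.323 in D1 and 9.68% ± 0.0206 in P. The anterior and central HoxA genes stood at 51.8% and 49.9% of D1 in sum, and the posterior ones at 464%. Hoxa10 had more counts than the other posterior HoxA genes in D1. With it counted, the posterior genes took 8.38% ± 0.365 of HoxA in D1 and 17.3% ± 0.597 in P, and their sum in P was 117% of that in D1. In the anterior HoxB and posterior HoxA shares the knockdowns lay nearer to D1 than to P. Anterior HoxB genes took 78.6% ± 0.701 in RBPMS KD1 and 79.1% ± 0.892 in MBNL KD. Posterior HoxA members took 1.23% ± 0.0623 and 0.898% ± 0.204, or 8.23% ± 0.104 and 9.35% ± 0.625 with Hoxa10. The anterior HoxA share, without Hoxa10, was 69.5% ± 0.948 in D1, 64.2% ± 0.764 in P, 65.5% ± 0.554 in RBPMS KD1 and 70.9% ± 0.468 in MBNL KD. The central HoxA share was 29.3% ± 1.18, 26.1% ± 0.743, 33.3% ± 0.611 and 28.2% ± 0.297 in that order.

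**Figure D3:**
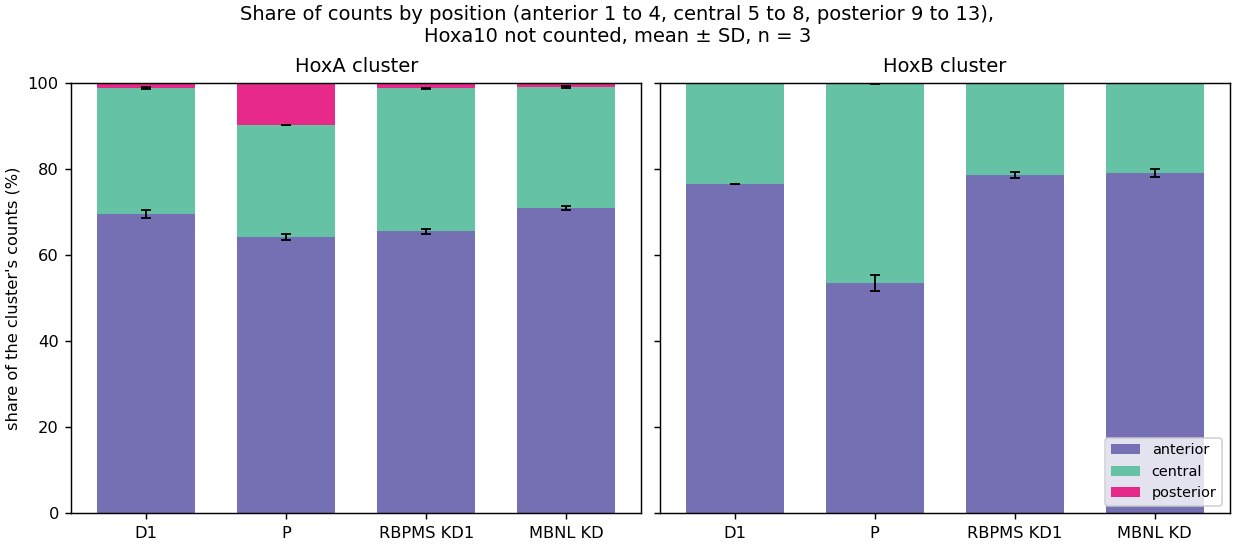
Share of the counts of the HoxA and HoxB clusters (vertical axis, percent) taken by anterior, central and posterior genes in the 4 groups (horizontal axis), with Hoxa10 not counted. Bars are means of 3 libraries, and the error bars at the 2 boundaries are the SDs of the anterior and of the posterior share. In P the anterior share of HoxB was 53.4%, against 76.5% in D1, and the posterior share of HoxA was 9.68%, against 1.17%, which became 17.3% and 8.38% with Hoxa10.

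Several genes inside the clusters that are no Hox genes by name differed in P too. Hoxa11-as, a long non-coding RNA whose start lies 227 bases from that of Hoxa11 and that is read in the opposite direction, had 6.12, 6.18 and 0 scaled counts in D1 and 80.2, 69.2 and 54.1 in P. It was higher in every P library, a log2 fold change of 4.01 ± 0.45 (edgeR, adjusted p = 1.01e-09) that was 1.20 in limma on the authors' normalised values. LOC102550580, a non-coding RNA between Hoxb2 and Hoxb3, had 178, 196 and 211 in D1 and 60.4, 59.7 and 56.9 in P, a log2 fold change of -1.73 ± 0.17 (adjusted p = 7.09e-11). LOC120095283, between Hoxb13 and Hoxb9, had no count in the 9 other libraries and 16.03, 12.3 and 5.69 in P, at least 3.67-fold higher. LOC102546856, named Hoxa3l1 in RefSeq, lies next to Hoxa3 and was at -0.71 ± 0.094. Whether the counting used strand is not stated, so that reads of genes that overlap on opposite strands cannot be told apart. In the GRCr8 annotation the start of Hoxa3 also lies beyond those of Hoxa4 and Hoxa6 on the same strand, and how reads shared by these genes were divided is not stated either.

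The comparison of RBPMS KD1 with D1 asks what loss of RBPMS, a splicing regulator that is far lower in P, does to the same genes. Rbpms itself stood at 6.32% of the D1 mean in P. Of the 19 Hox genes tested, 0 were called by edgeR and 0 by DESeq2, while 8 had an unadjusted p under 0.05 in edgeR. Among all 15904 genes tested, 3.06% were higher and 1.62% lower. On adjusted p alone 2 were higher and 6 lower, against 29.5% and 29.5% of all genes, which puts the lower ones near the share of all genes and the higher ones below it. The log2 fold changes of the 19 lay between -0.79 and 0.56, with a median of -0.10, against 0.00431 over all genes.

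The genes past the adjusted p in RBPMS KD1 came from 3 clusters. Hoxa7 had 880.2, 853 and 800.4 scaled counts, above every D1 library, a log2 fold change of 0.56 ± 0.069 (edgeR, adjusted p = 5.66e-08). Hoxb4 had 1383, 1368 and 1442, also above every D1 library, at 0.29 ± 0.053 (adjusted p = 3.63e-05). Hoxa2 had 2190.0, 2060.0 and 2192, below every D1 library, at -0.44 ± 0.042 (adjusted p = 2.94e-10). Hoxb2 had 1276, 1179.7 and 1268, at -0.41 ± 0.052 (adjusted p = 6.26e-08), and Hoxb6 was at 647 ± 62.7 against 890.5 ± 33.4 in D1, a log2 fold change of -0.46 ± 0.071. Hoxc6 had 56.5, 84.99 and 70.1, below every D1 library, at -0.71 ± 0.20 (adjusted p = 0.00348). Hoxa3 had 2413, 2500.1 and 2509, at -0.18 ± 0.040. Hoxa5 had 1673, 1745 and 1787, overlapping D1, at -0.12 ± 0.052. Hoxa4 had 970.0, 1130.2 and 1203 and Hoxb7 had 131, 107 and 121, and neither passed the test (adjusted p = 0.237 and 0.086). Hoxd8, which had no count in P, had 495, 536 and 617 in RBPMS KD1, overlapping its D1 values, at 0.13 ± 0.093 (adjusted p = 0.232). Hoxa11 had 22.2, 10.1 and 2.00, which spans its D1 values.

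MBNL proteins are splicing regulators with overlapping roles, and the comparison of MBNL KD with D1 asks the same of their joint loss. Of 19 Hox genes tested, 1 was lower and none higher by edgeR, with 11 at an unadjusted p under 0.05, and DESeq2 gave the same 2 counts. Among all 16053 genes tested, 4.14% were lower and 6.1% higher. On adjusted p alone 9 were lower and 2 higher, against 33.7% and 33.8% of all genes. The 1 called of 19 is near the share of all genes and is read below as a value of that gene. The median log2 fold change was -0.18, against 0.00991 over all genes.

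The gene called was Hoxa7. It had 311, 268 and 266 scaled counts in MBNL KD, below every D1 and every P library, and stood 2.03-fold lower than D1, a log2 fold change of -1.02 ± 0.091 (edgeR, adjusted p = 3.39e-11). That value lies at the edge of the call threshold: without MBNL KD replicate 2 or replicate 3 it was -0.99 in both cases and no Hox gene was called, and in limma on the authors' normalised values it was -0.98, each with an adjusted p under 0.05. Hoxa4 had 701, 627 and 731, below every D1 library, at -0.59 ± 0.067 (adjusted p = 5.67e-09). Hoxa3 had 2193, 2215 and 2187, at -0.35 ± 0.040, and Hoxb2 had 1298, 1297 and 1131, at -0.41 ± 0.055, both below every D1 library. Hoxa5, Hoxa9, Hoxb3, Hoxb5 and Hoxb6 were lower on adjusted p alone, with log2 fold changes in that order of -0.16, -0.65, -0.30, -0.49 and -0.34, and the libraries of Hoxa9 overlapped those of D1. Hoxa5 had 1746, 1581 and 1741.

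Hoxb4 was higher in MBNL KD on adjusted p. It had 1512, 1606 and 1447, above every D1 library, at 0.41 ± 0.055 (edgeR, adjusted p = 1.16e-07). Hotairm1, a non-coding RNA of the HoxA cluster, had 221, 239 and 228 in D1, 332, 319 and 359 in MBNL KD and 163, 177 and 186 in RBPMS KD1. Hotairm1 was thus above every D1 library in MBNL KD and below them in RBPMS KD1, at 0.55 ± 0.11 (adjusted p = 3.11e-05) and -0.38 ± 0.12 (adjusted p = 0.00904). In P it was lower than in D1, at -0.47 ± 0.13. Hoxa2 had 2975, 2728 and 2864 in MBNL KD, overlapping D1. Hoxc6 and Hoxd8 had 103, 101 and 114 and 492, 478 and 575, also overlapping D1, and Hoxb7 had 136, 92.97 and 103. Hoxa11 had 3.98, 9.89 and 15.3, so that neither the absence of Hoxd8 nor the higher Hoxa11 of P was seen in a knockdown.

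**Figure D4:**
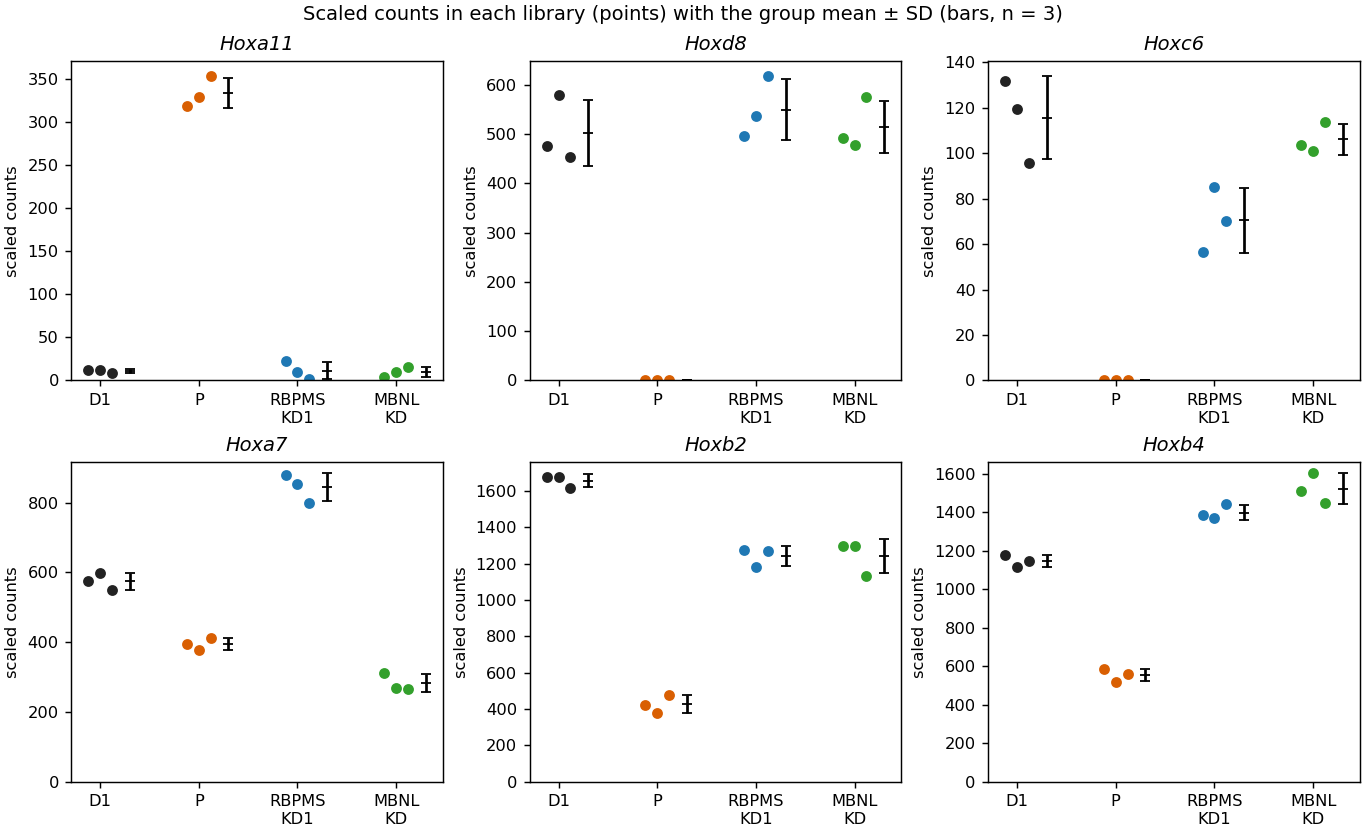
Scaled counts (vertical axes, from 0) of 6 Hox genes in each library of the 4 groups (horizontal axes), with the group mean and SD beside the points (n = 3). Hoxa11, Hoxd8 and Hoxc6 separate P from the other 9 libraries, while Hoxa7 is highest in RBPMS KD1 and lowest in MBNL KD.

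MBNL KD was also compared with RBPMS KD1 directly, since both knockdowns share the D1 libraries as their reference. Of 18 Hox genes tested, 1 was lower in MBNL KD and none higher by edgeR, with 10 at an unadjusted p under 0.05, and DESeq2 again gave the same 2 counts. Among all 16111 genes, 6.03% were lower and 5.88% higher. On adjusted p alone 6 were lower and 3 higher, against 34.5% and 35.1%, so that none of these shares but that of the higher ones, which was smaller, stood away from all genes. Hoxa7 was the gene called, at 3.00-fold lower in MBNL KD and a log2 fold change of -1.59 ± 0.083 (edgeR, adjusted p = 1.03e-16). All 3 MBNL KD libraries lay below, and all 3 RBPMS KD1 libraries above, the 3 of D1. Hoxa2 was higher in MBNL KD than in RBPMS KD1, at 0.41 ± 0.044, as was Hoxc6 at 0.58 ± 0.20. Hoxa4 and Hoxb5 were lower, at -0.69 ± 0.076 and -0.61 ± 0.13, and so, by less, were Hoxa3, Hoxa9 and Hoxb3. For Hoxb2 and Hoxb4, which moved from D1 in the same direction in both knockdowns, the difference between them was -0.0034 ± 0.060 and 0.12 ± 0.054 (adjusted p = 0.965 and 0.0508). Hotairm1 was higher in MBNL KD than in RBPMS KD1, at 0.93 ± 0.11 (adjusted p = 1.4e-08).

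Paralogues of the same group went the same way in P in some groups and not in others. In group 2, Hoxa2 and Hoxb2 were both lower on adjusted p, at -0.80 and -1.96, as were Hoxa3 and Hoxb3 of group 3, at -1.51 and -0.81. In group 4, Hoxa4, Hoxb4 and Hoxd4 were lower and Hoxc4 was not called. In group 5, Hoxa5 was lower, at -1.23, while Hoxb5 was at -0.16 and did not pass the test (edgeR, adjusted p = 0.245). In group 7, Hoxa7 had a log2 fold change of -0.55 and Hoxb7 one of 1.16. In group 8, Hoxb8 was higher and Hoxd8 was without a count, and in group 6 Hoxc6 was without a count and Hoxa6 was lower on adjusted p, at -0.88, while Hoxb6 stood at 0.14. In MBNL KD, Hoxa4 was at -0.59 and Hoxb4 at 0.41.

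Of the TALE partners of Hox proteins, all 9 were tested, and 1 was called in P, against 16.4% higher and 11.2% lower among all genes. Without the fold, 3 were higher and 4 lower on adjusted p, against 40.4% and 37.6% of all genes. The gene called was Pknox2, with 191, 175 and 171 scaled counts in D1 and 503, 512 and 504 in P, a log2 fold change of 1.49 ± 0.10 (edgeR, adjusted p = 3.33e-15). In RBPMS KD1 and in MBNL KD 0 of the 9 were called by edgeR and 0 by DESeq2, with 5 at an unadjusted p under 0.05 in each. Among all genes 3.06% were called higher and 1.62% lower in RBPMS KD1, and 6.1% and 4.14% in MBNL KD. On adjusted p alone 3 of the 9 were higher and 2 lower in RBPMS KD1, against 29.5% and 29.5% of all genes. In MBNL KD 5 were higher and 0 lower, against 33.8% and 33.7%. Of 13 Evx, ParaHox and related homeobox genes, 3 were tested in P. Cdx1, which acts upstream of Hox genes in the embryo, had 289, 219 and 231 in D1 and 75.5, 66.3 and 55.02 in P, a log2 fold change of -1.91 ± 0.17. Pdx1, the pancreatic ParaHox gene, had no count outside P and 23.6, 18.95 and 34.2 in P, at least 8.27-fold higher. Meox1, a somite gene, was higher in both knockdowns, at 3.05-fold in RBPMS KD1 (adjusted p = 5.34e-05) and 2.46-fold in MBNL KD (adjusted p = 0.000634). Its counts were low, at 26.5, 12.4 and 30.6 in D1 and 88.7, 56.7 and 67.1 in RBPMS KD1. Of 13 genes that flank the clusters, 11 were tested and 1 was called in P, against the same shares of all genes. It was Nfe2l2 near HoxD, a regulator of the oxidative stress response, at 1.24 ± 0.025. In each knockdown 0 of the 11 were called against D1 by edgeR and 0 by DESeq2, with 10 in RBPMS KD1 and 9 in MBNL KD at an unadjusted p under 0.05. Without the fold, 7 were higher and 3 lower in RBPMS KD1 on adjusted p, against 29.5% and 29.5% of all genes, and 4 higher and 4 lower in MBNL KD, against 33.8% and 33.7%. Atp5mc2, a subunit of ATP synthase near HoxC, was called lower in MBNL KD against RBPMS KD1, at -1.04 ± 0.027.

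Of 18 genes of retinoic acid handling, 11 were tested in P, of which 4 were higher and 1 was lower, against 16.4% higher and 11.2% lower among all genes. Crabp2, which carries retinoic acid to its receptor, had 101, 90.7 and 65.2 in D1 and 1833, 1692 and 1831 in P, a log2 fold change of 4.38 ± 0.092 (edgeR, adjusted p = 2.43e-29). Cyp26b1, which breaks retinoic acid down, was at 2.66 ± 0.12, and the other 2 called higher were Aldh1a1 and Dhrs3, named after their values were seen. Rarb, a receptor that is itself a target of retinoic acid, had 1479, 1518 and 1501 in D1 and 169.8, 156 and 199 in P, a log2 fold change of -3.10 ± 0.079 (adjusted p = 4.9e-27). In MBNL KD, 2 of 12 were lower, against 4.14% of all genes, Aldh1a3 at -1.25 ± 0.24 and Cyp26b1 at -1.08 ± 0.24, and both were also lower than in RBPMS KD1, at -1.24 ± 0.23 and -1.54 ± 0.21. In RBPMS KD1 0 of 12 were called by edgeR and 0 by DESeq2, against 3.06% higher and 1.62% lower among all genes, with 7 at an unadjusted p under 0.05. On adjusted p alone 5 were higher and 1 lower in RBPMS KD1, against 29.5% and 29.5% of all genes. In MBNL KD 0 were higher and 6 lower, against 33.8% and 33.7%. Between the knockdowns 0 were higher and 9 lower in MBNL KD, against 35.1% and 34.5%. The list's median log2 fold change was 0.33 in P, 0.13 in RBPMS KD1 and -0.26 in MBNL KD.

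All 20 Polycomb and Trithorax genes were tested. In P 1 was called lower, against 11.2% of all genes, and on adjusted p 8 were higher and 6 lower, against 40.4% and 37.6%. It was Bmi1, a Polycomb subunit, at -1.04 ± 0.030 (edgeR, adjusted p = 2.56e-25). In RBPMS KD1 1 was called lower, against 1.62% of all genes, and on adjusted p 3 were higher and 7 lower, against 29.5% and 29.5%. It was Jarid2, a partner of the Polycomb methyltransferase, with 2899.8, 2873 and 2711 in D1 and 1110.1, 1109 and 1059 in the knockdown, a log2 fold change of -1.37 ± 0.047 (adjusted p = 7.89e-20). In MBNL KD, 2 were called lower, against 4.14% of all genes: Ezh1, a Polycomb methyltransferase, had 2944, 2656 and 2917 in D1 and 1157, 1179.9 and 1193, a log2 fold change of -1.27 ± 0.048 (adjusted p = 7.71e-20), and Cbx7, which binds the Polycomb mark, was at -1.09 ± 0.23. Ezh1 was also lower in MBNL KD than in RBPMS KD1, at -1.68 ± 0.044. On adjusted p alone, 16 of the 20 were lower and 2 higher in MBNL KD, against 33.7% and 33.8% of all genes, with a median log2 fold change of -0.33. The 8 smooth muscle genes, which the study named from these libraries and which are no independent evidence of direction, were all called lower in P, against 11.2% of all genes, with a median log2 fold change of -5.10 and the largest falls in Acta2, smooth muscle actin, at -6.77 ± 0.036, and Cnn1, calponin, at -6.11 ± 0.11. In RBPMS KD1 4 of the 8 were called lower, against 1.62% of all genes: Acta2 at -1.11 ± 0.027, Mylk at -1.64 ± 0.029, Myl9 at -1.13 ± 0.028 and Cnn1 at -1.47 ± 0.064. In MBNL KD 0 were called by edgeR and 0 by DESeq2, against 6.1% higher and 4.14% lower among all genes, with 8 at an unadjusted p under 0.05. On adjusted p alone 2 were higher and 6 lower in MBNL KD, against 33.8% and 33.7% of all genes, with a median log2 fold change of -0.41. Between the knockdowns, 3 of the 8 were called higher in MBNL KD, against 5.88% of all genes, Myh11, Mylk and Cnn1, at 1.51, 1.25 and 1.58.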

How the data were processed

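RNA was measured in 12 libraries of rat PAC1 cells, 3 in each of 4 groups, prepared from poly(A) RNA with a directional kit. The count table was deposited by the authors, who sampled 55 M reads per library, aligned them with STAR 2.7.11b to mRatBN7.2 and counted reads per RefSeq gene symbol with featureCounts. The deposited signal table holds the authors' values after noise correction with noisyR and quantile normalization, with 35 as its smallest value, and was used for a limma alternative only. The version of STAR is from the submitters' processing notes, which also name FastQC 0.11.9 and MultiQC 1.14. Total counts of 80842635 to 90771289 exceed the 55 M sampled, and 67.3% to 70.3% of counts from 1 to 20 were even, so that counts are not read here as fragments counted once. Whether mates were counted singly, and whether counting used strand, is not given in the sources used here.

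Hox genes were found by symbol, and lists and members were chosen with earlier results of these data known. Counts were filtered with filterByExpr, scaled by TMM and tested with edgeR 4.0.16 (quasi-likelihood) in R 4.3.3, over all genes, with Benjamini-Hochberg adjustment. A gene was called at an adjusted p under 0.05 and a log2 fold change over 1 in size. Beside absent genes the bound was set at 3 counts per library, and the counting interval of a ratio is an exact binomial one at 95%. Named with the value in every library were called Hox genes whose higher group averaged 100 scaled counts or more, the Hox gene of highest mean in each cluster, and in other lists the called genes of largest change in P and those called in a knockdown. Exact permutation over 3 against 3 libraries cannot go below p = 0.1 and was not used. Alternatives were DESeq2 1.42.0, limma 3.58.1, DESeq2 size factors, quantile normalization, no filter, at least 10 counts in every library, 1 fit of all 12 libraries, the replicate number as a block, leaving out each library, and calls without a fold threshold. The tests were checked on simulated data. RefSeq's GRCr8 table was used for names, gene order and promoter sequences only. Libraries of the same number did not deviate together (r from -0.0335 to 0.0203), so that numbers were not taken as pairs. Of the members, 1 is counted in the totals but not reported here by itself.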

Additional observations from a re-analysis of the deposited data

Results flagged for a closer look

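Hoxa7 was the 1 Hox gene whose response differed between the knockdowns past the call threshold. It stood above D1 in RBPMS KD1 (0.56 ± 0.069) and below it in MBNL KD (-1.02 ± 0.091), and the difference between the knockdowns, tested directly with edgeR, was a log2 fold change of -1.59 (adjusted p = 1.03e-16), with all 3 libraries of MBNL KD below all 3 of RBPMS KD1. Hoxa7 was flagged because its effects in the knockdowns were opposite on adjusted p and the direct test also passed. Its difference was the largest in size of the 18 tested, so that it is a selected value.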

How the results depend on the processing

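Of 1054 log2 fold changes of Hox genes under the alternatives, 1011 kept direction and side of the call, 7 lost the call, 8 gained it and 28 changed sign, all 28 in values not called in the comparison concerned. With at least 10 counts in every library 5 Hox genes were lower in P, since Hoxc6, Hoxd4 and Hoxd8 then drop out by construction, and 10 values of single genes could not be had. Hoxa11 and Hoxb8, called higher in P, drop out in the same way, and Hoxa9 is then called higher. Limma on the authors' normalised values gave 1 higher in P and 0 lower in MBNL KD, and quantile normalization 2 lower in MBNL KD, the added one being Hoxc4 at -1.19. Without a fold threshold the counts were 6 higher in P, 2 higher and 6 lower in RBPMS KD1, 2 higher and 9 lower in MBNL KD, and 3 higher and 6 lower between the knockdowns. Leaving out 1 library gave 0 to 1 lower in MBNL KD and 3 to 4 higher in P. With the replicate block, 4 were higher in P (Hoxa9 at 1.01 added) and 8 lower, Hoxa11 in RBPMS KD1 was -0.064, and no other call changed. No filter added Hoxb9 in P. Counting Hoxa10 among the posterior HoxA genes, an alternative chosen after seeing the data, moved their sum in P from 464% to 117% of D1.

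Signs changed as follows, and the cause was not tested. In P, Hoxc4 was 0.25 and became -0.44 (quantile normalization) and -0.073 (limma), with a range of -0.11 to 0.58 when libraries were left out. In RBPMS KD1, Hoxa9 ranged from -0.29 to 0.15 and Hoxa11 from -0.84 to 0.56 when libraries were left out, and Hoxa11 was -1.56e-06 (quantile normalization) and -0.029 (limma). In MBNL KD, Hoxa2 was 0.029 under both, Hoxd8 was -0.012 and -0.0083 under them and -0.050 to 0.14 when libraries were left out, Hoxa11 ranged from -0.64 to 0.20 and Hoxd4 from -0.19 to 0.032. Between the knockdowns, Hoxa5 was 0.0017 (quantile normalization) and 0.0011 (limma), Hoxb2 was 0.033 and 0.030 under them, 0.0016 in 1 fit of all libraries and -0.055 to 0.051 when libraries were left out, and Hoxa11 ranged from -0.76 to 0.65.

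Over all genes, 4641 were called in P and 2933 with at least 10 counts in every library. Limma called 209 of 745 in RBPMS KD1, 784 of 1643 in MBNL KD and 1050 of 1920 between the knockdowns, where "of" gives edgeR's count and not shared genes. Without a fold threshold the numbers were 13103, 9393, 10833 and 11202. HoxA and HoxB counts per library total moved by more than the spread between libraries against TMM in 5 of 80 cluster levels. Depth limits what is said of the 11 genes without a count, for which 3 counts per library is the bound, and of Hoxa11, Hoxc4 and Hoxd4, whose counts were low.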

Other observations

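Hoxb5os, a non-coding RNA between Hoxb7 and Hoxb6, was at -0.53 ± 0.15 in MBNL KD (edgeR, adjusted p = 0.00297), where Hoxb5 was at -0.49 and Hoxb6 at -0.34. These genes were measured in the same libraries, and no difference between neighbours was tested.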
